A study of Homo sapiens with 24 samples.

Results

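RNA-seq of WT U2OS cells compared 3 libraries of cells treated with mocetinostat with 3 libraries of untreated cells, 6 of the 24 libraries of the series. The members were the 6 libraries whose sample titles name WT U2OS cells, and groups and replicate numbers were taken from those titles. U2OS is a human osteosarcoma line with epithelial-like shape, grown from a bone tumour. Treated cells were exposed to mocetinostat for 24 h, and no dose is given for these libraries in the sources used here. The labels give no recovery time, and collection at the end of the exposure, before any recovery, was inferred from the design text and the methods. The other libraries of the series came from ID3-KO U2OS cells under the same treatment, and from WT and ID3-KO cells of AID-DIvA U2OS, a derivative carrying an inducible restriction nuclease, which were treated and then left to recover. The library names of the 6 WT U2OS samples also carry the prefix DivA, although their cell line label is U2OS. All 6 samples came from 1 line, described as 3 biological replicates per group, so that p-values measure the spread between cultures of that line and not between tumours. As in any bulk sample, a change in the share of cells that express a gene and a change in the amount of RNA per cell cannot be told apart.

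Histone deacetylases (HDACs) remove acetyl groups from lysines of histone tails and of other proteins. The class I enzymes HDAC1, HDAC2 and HDAC3 act in corepressor complexes such as SIN3, NuRD, CoREST and NCoR, which repressors like REST bring to their target genes, while acetyltransferases such as EP300 and CREBBP add the marks back. Mocetinostat is a benzamide inhibitor of class I and class IV HDACs, and inhibitors of this kind are known in tumour cells for inducing silent, tissue-restricted genes and for slowing the cell cycle.

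Each library held between 46285533 and 70692114 counts. Untreated replicate 1 stood apart from its 2 replicates. Tested against them, its counts gave a chi-square per gene of 101.96 and 88.46, compared with 4.27 between untreated replicates 2 and 3 and 3.77 to 5.17 among the treated libraries. Its genes with 1000 to 2000 exonic bases lay 0.332 log2 units above the other untreated libraries in the median, and those with more than 8000 bases had a median of -0.331, whereas the treated libraries stayed within 0.04 of their replicates in every length class. It also had counts for 27361 genes, against 29364 to 32768 in the other 5 libraries, and gave 7.348% of its counts to genes of cytoplasmic ribosomal proteins, against 5.227% to 5.582%. Short genes therefore had a higher untreated mean with this library than without it, and the calls and fold changes of genes and lists in the WT comparison were also computed without it.

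**Figure D1:**
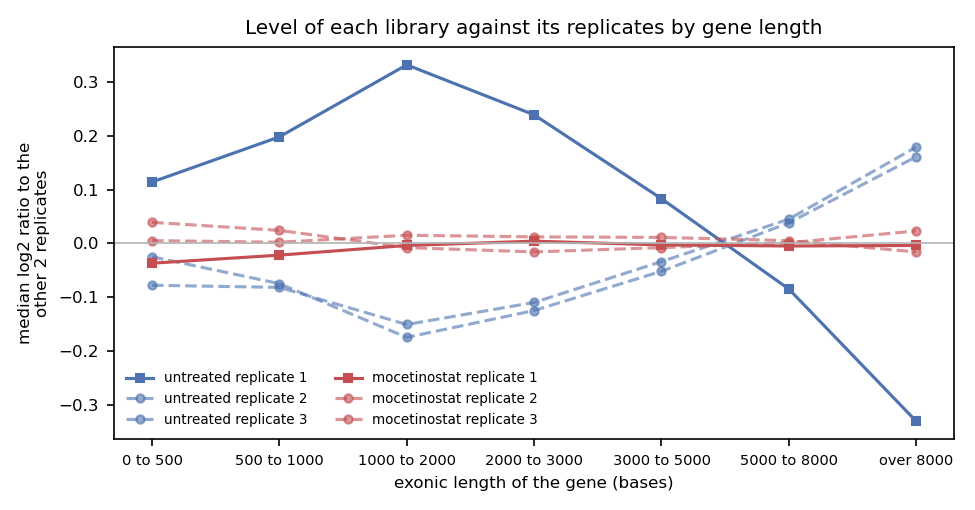
The x axis gives the exonic length of the gene in bases and the y axis the median log2 ratio of a library to the other 2 libraries of its group, with 1 line per library. Untreated replicate 1 runs from 0.332 at 1000 to 2000 bases to -0.331 above 8000 bases, untreated replicates 2 and 3 mirror it, and the 3 mocetinostat libraries lie within 0.04 of 0.

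Genes were tested by the quasi-likelihood method of edgeR with Benjamini-Hochberg adjustment over all genes tested, and were called upregulated or downregulated where the adjusted p was under 0.05 and the log2 fold change exceeded 1 in size. A gene that passed only the adjusted p is given as higher or lower. Of 21797 genes tested, 2958 were upregulated (13.6%) and 1103 were downregulated (5.06%). The median log2 fold change of all genes tested was 0.006. Without untreated replicate 1, 3226 of 22423 genes were upregulated (14.4%) and 1247 were downregulated (5.56%), and 2753 and 944 genes were called in the same direction either way. Without the fold threshold, 5658 genes were higher (26% of those tested) and 4995 were lower (22.9%), so that the surplus of upregulated genes lay in the size of the changes. Upregulated genes had a median log2 fold change of 1.85, and 669 of them exceeded 3. Downregulated genes had a median of -1.33, and 30 lay below -3. The 3 treated and the 3 untreated values did not overlap for 13390 genes (61.4%).

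Most upregulated genes were silent or nearly silent in untreated cells. For 1778 of the 2958, the untreated mean was under 1 CPM, a count scaled to the normalized total of its library. The median treated level of all 2958 was 2.45 CPM. A gene that passed the filter on low counts only because treated cells expressed it had to come out higher, so counts of upregulated members given below for lists of tested genes are descriptions, and the share called was also taken over genes chosen on other libraries. The 3 untreated ID3-KO U2OS libraries, which take no part in the WT comparison, gave at least 1 CPM for 15308 genes, of which 15297 were tested, 1154 were upregulated (7.54%) and 785 were downregulated (5.13%). By their RPKM, which is CPM per kilobase of exon and so a level per gene length, the upregulated share was 32.6% of the 442 genes under 0.3 RPKM, 20.2% of the 1908 genes from 0.3 to 1, 11.1% of the 3289 genes from 1 to 3, 4.42% of the 4774 genes from 3 to 10 and 1.17% of the 3242 genes from 10 to 30. Above 100 RPKM it was 0.875% of 343 genes. The downregulated share was 5.2% in the lowest class, 6.81% from 1 to 3 RPKM and 4.37% above 100 RPKM. The median log2 fold change passed from 0.485 in the lowest class to -0.276 in the highest. Without untreated replicate 1 the shares of upregulated genes were 29.9% in the lowest class and 0.875% in the highest. The downregulated share of the highest class was then 2.62% and its median log2 fold change -0.156.

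**Figure D2:**
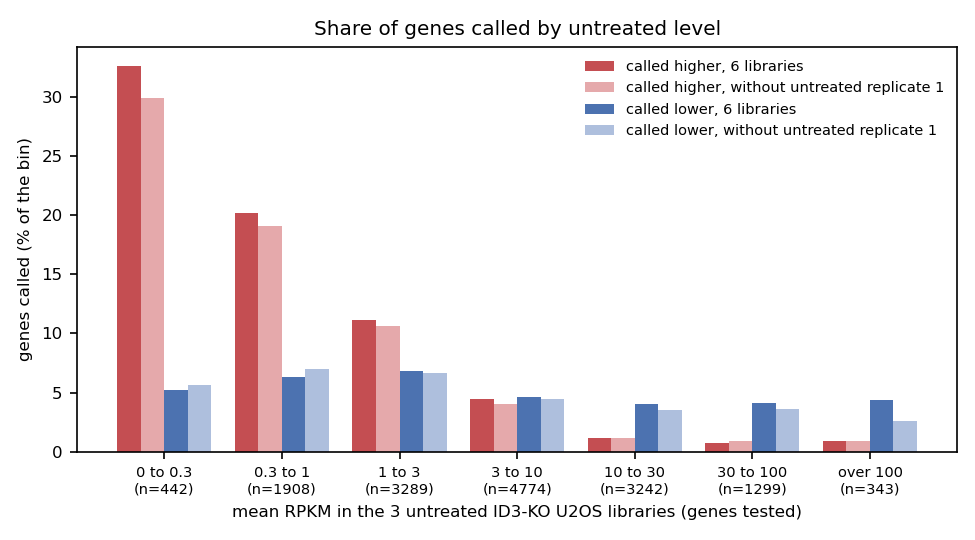
The x axis gives the mean RPKM of a gene in the 3 untreated ID3-KO U2OS libraries, with the number of genes tested in each class, and the y axis the percentage of that class called higher (red) or lower (blue) in WT cells, with all 6 libraries (dark) and without untreated replicate 1 (pale). The upregulated share falls from 32.6% to 0.875%, while the downregulated share lies between 4.04% and 6.81% with all 6 libraries and is 2.62% in the highest class without untreated replicate 1.

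Of the 10 upregulated genes with the largest fold changes at a mean of at least 1 CPM, several belong to neurons. STMN4 and STMN2 encode stathmins, which bind tubulin in growing neurites, SYT4 a synaptotagmin of secretory vesicles, POU4F2 a transcription factor of retinal ganglion cells and ADCYAP1 the neuropeptide PACAP. STMN4 (ENSG00000015592.12, hg19 chromosome 8, 27092840 to 27115937) stood at 0.0811, 0.0286 and 0.0786 CPM in the untreated and at 18.96, 19.2 and 21.9 CPM in the treated libraries (log2 fold change 8.32, standard error 0.21, adjusted p = 4.35e-07). POU4F2 was at 0.0649, 0 and 0 CPM and then at 3.86, 3.44 and 3.92 (7.29, standard error 0.49, adjusted p = 1.91e-05), and ADCYAP1 rose by 7.12. CSF3, the granulocyte colony-stimulating factor gene, had 1 count in the 3 untreated libraries together and 487 in the treated ones, a ratio of 485 with a 95% interval of 86.7 to 19200 that covers counting error only. The ratios were 204 for FGD2 (56.1 to 1690), which encodes a guanine nucleotide exchange factor, and 188 for SYT4 (51.8 to 1560), from 2 untreated counts each. BCAS1, a gene of myelinating cells, went from 0.178, 0.0286 and 0.118 CPM to 24.6, 25.5 and 26.3 CPM (log2 fold change 7.90, standard error 0.27, adjusted p = 1.36e-06). CYP4F2 and CYP4F3 encode fatty acid hydroxylases of the cytochrome P450 family and rose by 7.38 and 7.95 on the log2 scale, but they are close paralogs, so how reads were shared between them is uncertain.

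At a mean of at least 1 CPM, the strongest decreases were found for genes that included SYT8, HTR2A, WNT5B and CXCL14. SYT8, another synaptotagmin gene (ENSG00000149043.12, hg19 chromosome 11, 1848709 to 1858751), was at 2.43, 2.42 and 1.79 CPM in untreated and at 0.0480, 0.0209 and 0 CPM in treated libraries (log2 fold change -6.53, standard error 0.47, adjusted p = 2.61e-05). HTR2A, a serotonin receptor gene, fell from 3.29, 4.25 and 3.18 CPM to 0.0801, 0.188 and 0.138 CPM (-4.74, standard error 0.27, adjusted p = 9.53e-06). WNT5B encodes a WNT ligand and fell by 3.79. CXCL14, a chemokine gene, had 50.6, 65.6 and 61.5 CPM before and 5.96, 5.01 and 5.42 CPM after treatment (-3.44, standard error 0.13, adjusted p = 1.74e-06). ACKR3, which encodes a scavenging receptor for the chemokine CXCL12, fell by 3.18, from 80.8, 67.8 and 65.5 CPM to 8.07, 7.28 and 8.23 CPM. The noncoding RNA LINC00452 fell by 3.16. ZXDA, GTF2IRD2B and the keratin gene KRT14 had log2 fold changes of -3.36, -3.27 and -3.18, and each of these has near-identical copies elsewhere in the genome, so their values are uncertain.

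Among the abundant genes, ANKRD1, a target of the YAP and TEAD factors (ENSG00000148677.6, hg19 chromosome 10, 92671853 to 92681033), rose most, from 181, 202 and 214 CPM to 1212, 1201 and 1283 CPM (log2 fold change 2.63, standard error 0.09, adjusted p = 1.23e-06). CYR61, another such target, rose by 1.11 to between 1083 and 1152 CPM. CITED2, which encodes a competitor for the EP300 and CREBBP acetyltransferases, went from 61.6, 47.7 and 49.2 CPM to 225, 228 and 227 CPM (2.10, standard error 0.11, adjusted p = 5.97e-06). DUSP1, a phosphatase gene that limits MAP kinase signalling, rose by 1.81, and the genes of the heparan sulfate proteoglycan SDC4 and the transglutaminase TGM2 rose by 1.39 and 1.19. RFPL4A and NCOR1P3 also met the rule for abundant genes, with 1.34 and 1.33, but both have near-identical copies. In the other direction, SERPINH1, the gene of a collagen chaperone, fell by 2.03, from 536, 437 and 421 CPM to 119, 111 and 111 CPM (standard error 0.11, adjusted p = 6.52e-06). HDGF, a growth factor gene, fell by 1.69 and ANP32B, which encodes an acidic nuclear phosphoprotein that binds histones, by 1.59. EMP3, ATN1, AXL, HMGN2, GPC1 and S100A2 fell by between 1.23 and 1.44. Of these, HMGN2 encodes a nucleosome-binding protein, ATN1 a transcriptional corepressor, AXL a receptor tyrosine kinase and GPC1 a glypican of the cell surface.

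The MHC class II genes formed the group with the highest share of upregulated members. MHC class II molecules present peptides to CD4+ T cells and are normally made by antigen-presenting cells, under the control of the coactivator CIITA. HLA-DRA, HLA-DRB1, HLA-DPA1, HLA-DPB1, HLA-DQA1 and HLA-DQB1 encode the chains of the presenting molecules, HLA-DMA and HLA-DMB the exchange factor that loads peptides, HLA-DOA and HLA-DOB its modulator, and CD74 the invariant chain. All 12 genes of the list were tested, 11 were upregulated (91.7%) and none was downregulated, with a median log2 fold change of 2.95 compared with 0.006 over all genes. Without untreated replicate 1 the counts were the same and the median was 2.93. Their summed level lay between 8 and 10.1 CPM in the untreated and between 52 and 54.7 CPM in the treated libraries.

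Promoters of this family share a conserved module whose Y box holds an inverted CCAAT sequence bound by the factor NF-Y, and the sequences of 4 of them are printed to show it. They are the 150 bases before the annotated start, from RefSeq on GRCh38.p14, written 5′ to 3′ on the gene's own strand. They lie at chr6:32589849-32589998 (minus strand) for HLA-DRB1, chr6:33075840-33075989 (plus) for HLA-DPB1, chr6:32953098-32953247 (minus) for HLA-DMA and chr6:32941029-32941178 (minus) for HLA-DMB. Capitals mark ATTGG on the transcribed direction.
HLA-DRB1: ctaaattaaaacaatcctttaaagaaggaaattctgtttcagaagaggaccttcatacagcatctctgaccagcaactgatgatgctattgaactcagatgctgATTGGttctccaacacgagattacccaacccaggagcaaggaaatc
HLA-DPB1: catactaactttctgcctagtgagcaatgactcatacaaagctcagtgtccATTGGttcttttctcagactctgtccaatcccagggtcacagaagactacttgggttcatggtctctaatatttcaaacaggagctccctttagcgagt
HLA-DMA: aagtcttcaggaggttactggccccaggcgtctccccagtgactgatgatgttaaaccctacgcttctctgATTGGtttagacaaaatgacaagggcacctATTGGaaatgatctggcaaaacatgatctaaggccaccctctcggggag
HLA-DMB: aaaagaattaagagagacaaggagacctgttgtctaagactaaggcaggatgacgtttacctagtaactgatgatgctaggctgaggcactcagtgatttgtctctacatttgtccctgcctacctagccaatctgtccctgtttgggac
Searched as the letters ATTGG in the direction of transcription, the motif was found in 7 of the 10 class II promoters in the table (70%), against 4669 of all 35116 promoters of this length (13.3%). It began 46 bases before the start in HLA-DRB1, 99 in HLA-DPB1, and 79 and 49 in HLA-DMA. The window of HLA-DMB held no such letters in this direction. Read on either strand as CCAAT, of which ATTGG is the reverse complement, it was found in 9 of the 10 (90%), against 23.5% of all promoters. A match is a description of these letters and not a measured binding site. Expression was read on hg19, so the promoter coordinates refer to another build than the counts.

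HLA-DRA (ENSG00000204287.9, hg19 chromosome 6, 32407619 to 32412823) had the largest change of the list, from 0.0811, 0.229 and 0.118 CPM to 10.5, 10.9 and 9.95 CPM (log2 fold change 6.13, standard error 0.24, adjusted p = 2.26e-06). HLA-DMB went from 0.438, 0.444 and 0.767 CPM to 9.64, 9.97 and 10.3 CPM (4.21, standard error 0.20, adjusted p = 4.18e-06). HLA-DRB1 rose by 4.36, to between 1.88 and 2.19 CPM, and HLA-DQA1 by 3.86, to between 0.751 and 1.12 CPM. For all 11 upregulated genes the 3 treated libraries lay above the 3 untreated ones. The groups did not overlap for 61.4% of all genes tested, and these 11 were already chosen as called. The members outside the rule for named genes are given to complete the list. HLA-DOA rose by 3.85, HLA-DPB1 by 3.33, HLA-DMA by 2.58, HLA-DPA1 by 2.51 and HLA-DOB by 1.87. HLA-DQB1 was already at 5.66, 3.66 and 3.52 CPM in untreated cells and rose to 11.9, 12.4 and 11.3 CPM (1.47, standard error 0.18, adjusted p = 0.000394). CD74 did not follow the others, with 0.649, 0.701 and 0.649 CPM in untreated and 1.11, 0.647 and 0.894 CPM in treated libraries, values that overlap (0.41, adjusted p = 0.195). Per length, the level in treated cells was 8.16 RPKM for HLA-DRA and 0.277 RPKM for CD74. HLA genes are polymorphic and alike, so reads can be lost or shared between them.

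CIITA (ENSG00000179583.13, hg19 chromosome 16, 10971055 to 11026079) was upregulated by 1.42 on the log2 scale, from 0.5998, 0.973 and 0.786 CPM to 2.45, 1.94 and 1.94 CPM (standard error 0.22, adjusted p = 0.00117). These counts take fragments from both strands. On the reverse strand, the sense strand of this library kit, CIITA had 0, 4 and 1 counts in the untreated and 101, 58 and 101 counts in the treated libraries, a log2 fold change of 5.60 (standard error 0.49, adjusted p = 7.63e-05). Most of the untreated counts assigned to CIITA thus came from the opposite strand. Of the other upregulated class II genes tested on that strand, none differed by more than 1 log2 unit between the 2 ways of counting.

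**Figure D3:**
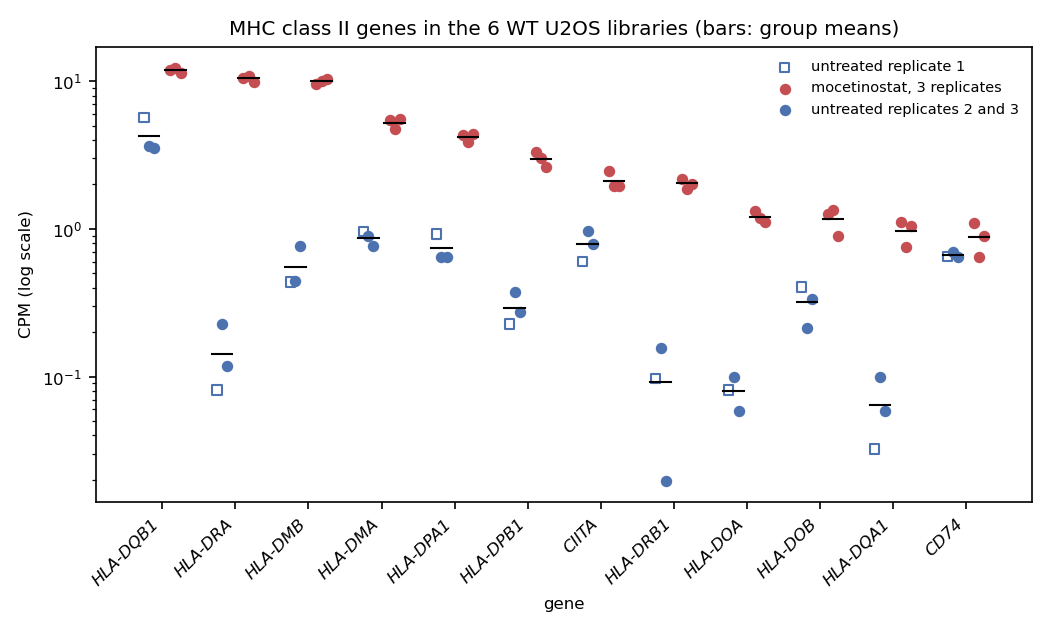
The x axis lists the 12 MHC class II genes and the y axis gives CPM on a log scale for each of the 6 WT U2OS libraries, blue for untreated (open square for replicate 1) and red for mocetinostat, with bars at the group means. In every gene but CD74 the 3 treated points lie above the 3 untreated points, from HLA-DQB1 with 11.3 to 12.4 CPM after treatment down to HLA-DQA1 with 0.751 to 1.12.

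Class I presentation, which serves every nucleated cell, moved less. Of 13 genes tested, 2 were upregulated (15.4%, against 13.6% of all genes tested) and none was downregulated, and the median was 0.50. Without untreated replicate 1 a further gene, HLA-E, was called, at 1.03. These were HLA-F, which rose from 8.80, 6.60 and 6.94 CPM to 24.9, 25.2 and 26.6 CPM (1.78, standard error 0.12, adjusted p = 1.98e-05), and the immunoproteasome subunit PSMB9, which rose by 1.53. HLA-B stood at 278, 206 and 194 CPM before and 333, 329 and 333 CPM after treatment (0.55, adjusted p = 0.0108), and the light chain gene B2M at 407, 363 and 358 CPM and then 342, 345 and 364 CPM (-0.10, adjusted p = 0.317). Among 22 interferon-stimulated genes tested, 3 were upregulated, 13.6% as for all genes tested (OASL by 1.35, IFI6 by 1.19 and IFIH1 by 1.01) and MX1 was downregulated by 1.14, with a median of 0.30. IFIH1, a sensor of double-stranded RNA, was at 0.86 without untreated replicate 1 and then not called. ISG15 and IFIT1 had log2 fold changes of 0.32 and -0.33.

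Neuronal and synaptic genes were the second group with a high share of upregulated members. Many of them are held silent outside the nervous system by the repressor REST with its HDAC-containing cofactors. Of 35 genes of the list, 32 were tested, 22 were upregulated (68.8%) and none was downregulated, and the median was 2.03 (1.96 with 21 upregulated genes without untreated replicate 1). STMN2 rose from 0.0811, 0.0858 and 0.0197 CPM to 11.99, 12.1 and 12.5 CPM (log2 fold change 7.49, standard error 0.23, adjusted p = 8.13e-07). CPLX2, which encodes the fusion regulator complexin, went from 0.114, 0.186 and 0.118 CPM to 9.43, 9.74 and 9.67 CPM (6.06, standard error 0.18, adjusted p = 6.17e-07). SYP, the gene of the vesicle protein synaptophysin, was already expressed, at 16.1, 13.1 and 12.9 CPM, and reached 95.1, 96.5 and 98.0 CPM (2.78, standard error 0.10, adjusted p = 1.83e-06). The doublecortin gene DCX had 1 untreated and 68 treated counts, a ratio of 67.8 (11.8 to 2720). NEFM, a neurofilament gene, rose by 2.25, and by 4.55 on the sense strand.

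The rise did not extend to every neuronal gene. SNAP25, which encodes a core protein of synaptic vesicle fusion, went from 9.42, 9.28 and 9.99 CPM to 14.6, 15.7 and 14.6 CPM, a log2 fold change of 0.65 (adjusted p = 0.000414), below the threshold for a call. The calcium sensor gene SYT1 was at 0.86. The neuronal tubulin gene TUBB3 was at 13.3, 11.7 and 11.7 CPM before and 10.6, 12.6 and 12.3 CPM after treatment, values that overlap (-0.05, adjusted p = 0.721). REST itself stood at 35.0, 57.7 and 55.3 CPM in untreated and 59.6, 61.0 and 56.3 CPM in treated libraries (0.26, adjusted p = 0.264), and at a log2 fold change of 0.05 without untreated replicate 1. Its cofactor RCOR2 rose by 1.71, and RCOR1 was at 0.64.

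Genes of ion channels rose in large numbers, several of them from very low levels, and a smaller share of transporter genes rose. Of 133 genes of potassium, sodium and calcium channels, which set the excitability of nerve and muscle, 112 were tested, 55 were upregulated (49.1%) and 4 were downregulated (SCN2A, CACNG6, KCNN4 and KCNJ1, at -1.48, -1.80, -1.42 and -1.22), with a median of 1.02. CACNG3, a calcium channel subunit gene, had 1 untreated and 119 treated counts, a ratio of 119 (20.9 to 4720). The ratios were 108 for KCNJ6 (18.9 to 4290) and 106 for KCNU1 (18.6 to 4210). KCNC2 had no count in any untreated library and 54 in the treated ones, at least 17.9-fold higher when 3 counts are set as the floor of the untreated group. Of 367 solute carrier genes, 292 were tested, 59 were upregulated (20.2%) and 6 were downregulated, and the median was 0.25. The dopamine transporter gene SLC6A3 had a ratio of 79.2 (21.6 to 660), and the amino acid transporter gene SLC36A2 was at least 23.6-fold higher. SLC6A19, which encodes a transporter of neutral amino acids, rose by 6.08. The glucose transporter gene SLC2A3 was already at 51.6, 53.6 and 56.1 CPM and rose to 272, 288 and 301 CPM (2.42, standard error 0.08, adjusted p = 9.33e-07).

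Chemokines, interleukins and their receptors followed. Of 122 genes of the list, 59 were tested, 34 were upregulated (57.6% of those tested) and 2 were downregulated, and the median was 1.47. CCL20, which encodes a chemokine for CCR6-bearing lymphocytes and dendritic cells, rose from 1.95, 1.29 and 1.12 CPM to 64.8, 58.9 and 70.1 CPM (log2 fold change 5.47, standard error 0.20, adjusted p = 1.48e-06). CCR4, a receptor gene of T cells, went from 0.0324, 0.0429 and 0 CPM to 0.897, 1.21 and 1.11 CPM (5.20), and CXCL5, which encodes a neutrophil chemokine, rose by 4.86. IL1RL1, the gene of the interleukin 33 receptor, had a ratio of 49.3 (13.3 to 413) on 2 untreated counts. The 2 downregulated genes were CCR3, at -1.21, and CXCL14, described above.

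Markers of other cell types were checked because so many tissue-restricted genes moved. Of 12 leukocyte markers, 8 were tested and 4 were upregulated. Those reported here are CD3D, ITGAM and LAPTM5, with log2 fold changes of 1.59, 1.20 and 1.35. CD14, CD3E, CD68 and LYZ lay below the filter, and PTPRC, the pan-leukocyte gene CD45, stood at 0.162, 0.286 and 0.216 CPM in untreated and 0.176, 0.188 and 0.124 CPM in treated libraries. The summed level of the tested leukocyte markers was 3.16 to 4.07 CPM before and 6.88 to 7.69 CPM after treatment. Of 6 endothelial markers tested, KDR, the gene of a VEGF receptor, rose by 4.34 and CDH5 by 2.76, and CLDN5 fell by 1.16. Of 25 epithelial genes, 21 were tested, 9 were upregulated (42.9%) and 1 was downregulated (CLDN7, at -1.46), and the median was 0.66. ELF3, an epithelial transcription factor gene, rose from 0.0486, 0.0715 and 0.256 CPM to 5.48, 5.40 and 4.95 CPM (5.48, standard error 0.37, adjusted p = 1.94e-05), GRHL1 by 2.76, the tight junction genes TJP3 and CLDN4 by 2.38 and 2.02 and the splicing factor gene ESRP1 by 2.19. The E-cadherin gene CDH1 did not move with them, at 0.470, 0.572 and 0.688 CPM before and 0.656, 0.563 and 0.660 CPM after treatment (0.13, adjusted p = 0.678), EPCAM was at 0.66, and KRT19 and GRHL2 lay below the filter. Of 56 keratin genes, 23 were tested, 12 were upregulated (52.2%) and 1 was downregulated. KRT20, a keratin gene of the intestinal epithelium, went from 0.0973, 0.0429 and 0.216 CPM to 9.86, 9.51 and 12.4 CPM (6.56, standard error 0.33, adjusted p = 5.09e-06), and KRT32, KRT23 and KRT78 rose by 4.25, 4.08 and 3.88 to under 1 CPM.

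**Figure D4:**
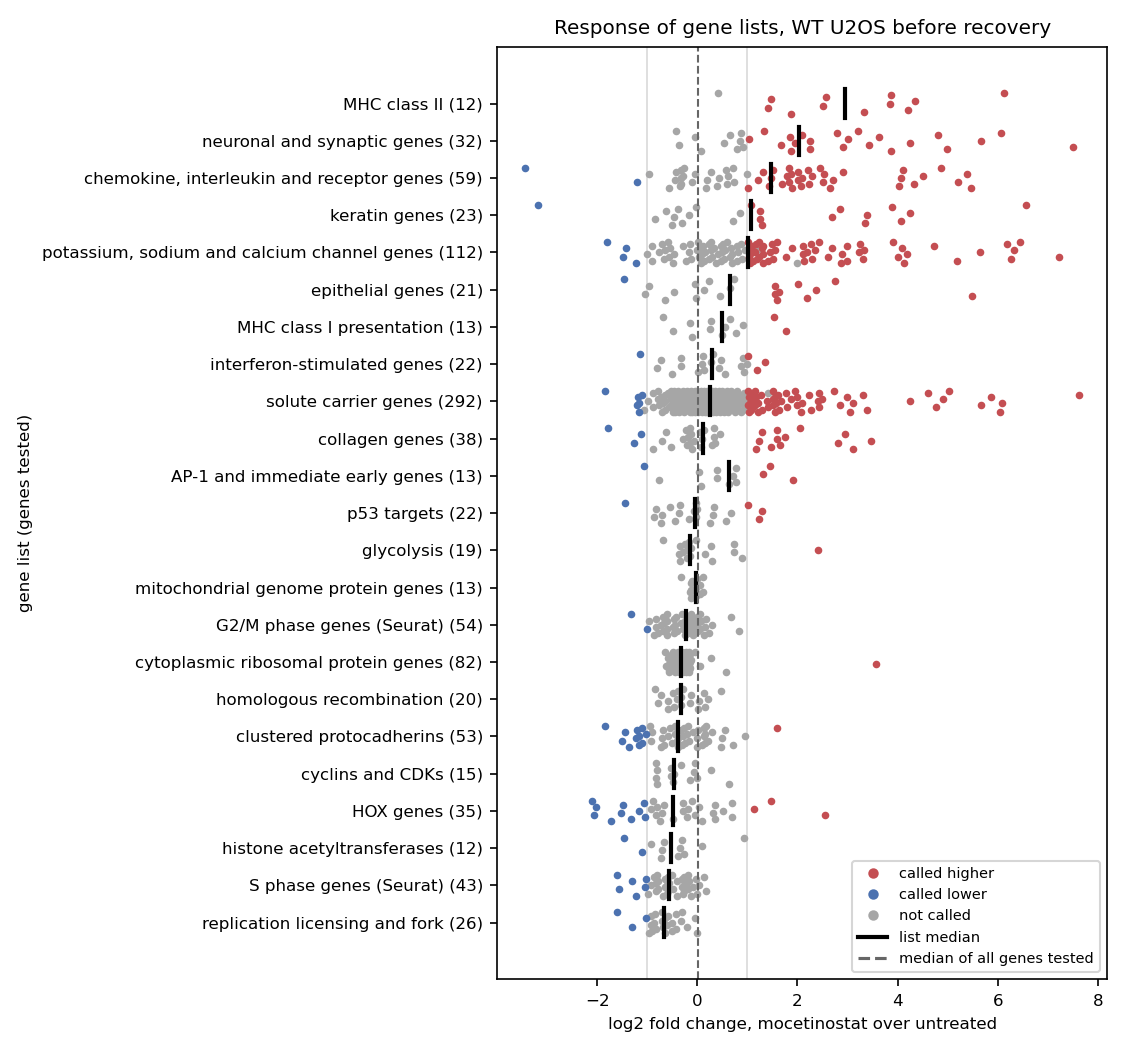
Each point is a gene tested, placed by its log2 fold change of mocetinostat over untreated WT U2OS cells (x axis) within its gene list (y axis, with the number of genes tested), red or blue where called and grey where not, with a bar at the list median and a dashed line at the median of all genes, 0.006. MHC class II genes have the highest median of these lists (2.95) and genes of replication licensing and the fork the lowest (-0.67).

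Metallothioneins bind zinc and copper, and their genes are induced through metal response elements by the factor MTF1. Of 15 genes of the family only 3 passed the filter. MT2A rose from 182, 124 and 121 CPM to 359, 342 and 384 CPM (log2 fold change 1.34, standard error 0.16, adjusted p = 0.000336), and MT1X from 6.29, 3.81 and 3.26 CPM to 19.2, 20.7 and 21.8 CPM (2.20, standard error 0.22, adjusted p = 0.000152). MT1E was at 0.53 (adjusted p = 0.0684). In all 3, untreated replicate 1 was the highest of the untreated libraries, and without it MT2A and MT1X rose by 1.55 and 2.52. Their promoters are printed as the 150 bases before the start (RefSeq, GRCh38.p14, plus strand), at chr16:56608434-56608583 for MT2A and chr16:56682320-56682469 for MT1X. Capitals mark the letters TGCACNC, a form of the core of the metal response element, searched on both strands. Other forms of the core were not searched.
MT2A: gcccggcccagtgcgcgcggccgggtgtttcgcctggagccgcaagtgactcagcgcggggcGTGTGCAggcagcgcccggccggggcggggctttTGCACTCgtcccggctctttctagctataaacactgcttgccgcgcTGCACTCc
MT1X: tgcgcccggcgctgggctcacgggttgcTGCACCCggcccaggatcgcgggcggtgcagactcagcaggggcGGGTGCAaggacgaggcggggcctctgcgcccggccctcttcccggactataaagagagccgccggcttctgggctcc
MT2A held 3 matches and MT1X held 2, and 5.82% of all 35116 promoters of this length held at least 1. The first match began 88 bases before the start in MT2A and 122 in MT1X.

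Genes of the bone-forming lineage, from which osteosarcoma derives, changed in both directions. Of 16 tested, 6 were upregulated and 3 were downregulated, with a median of 0.22. RUNX2, the master transcription factor gene of osteoblasts, fell from 38.9, 46.0 and 49.7 CPM to 16.5, 16.3 and 13.8 CPM (log2 fold change -1.53, standard error 0.12, adjusted p = 3.82e-05), the homeobox gene DLX5 fell by 1.52, and TNFRSF11B, which encodes osteoprotegerin, fell by 1.09. The collagen gene COL1A1, at 2647, 2417 and 2346 CPM in untreated and 1676, 1617 and 1505 CPM in treated libraries, and the matrix gene SPARC had log2 fold changes of -0.63 and -0.66, and the alkaline phosphatase gene ALPL one of -0.80. MSX2 and DLX3, homeobox genes of skeletal development, rose by 2.57 and 3.10, and SPP1, the osteopontin gene, rose from 30.1, 29.1 and 31.6 CPM to 58.6, 61.9 and 63.8 CPM (1.02, standard error 0.07, adjusted p = 2.54e-05). IBSP, the bone sialoprotein gene, had a ratio of 26.4 (6.96 to 224) on 2 untreated counts. SP7 lay below the filter. The defining genes of osteoblasts were partly expressed and partly at or near 0 in this line, with COL1A2 at 0.924 to 1.12 CPM in untreated libraries.

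Few mesenchymal genes passed the test, which 26% of all genes tested passed as higher and 22.9% as lower. Of 11 tested, 2 were higher and 1 was lower by adjusted p, and only SNAI1, which encodes a repressor of epithelial genes, was upregulated, from 10.9, 8.74 and 8.12 CPM to 41.7, 44.7 and 42.7 CPM (log2 fold change 2.22, standard error 0.12, adjusted p = 6.67e-06). The vimentin gene VIM stood at 574, 473 and 473 CPM and then 454, 456 and 456 CPM (-0.16, adjusted p = 0.205), the N-cadherin gene CDH2 was at 0.28 and ZEB1 at 0.32. The fibronectin gene FN1 was at 455 CPM in untreated replicate 1 against 979 and 934 CPM in replicates 2 and 3, and its log2 fold change was 0.04 with this library and -0.24 without it. Contractile genes split, with 3 of 14 upregulated and 3 downregulated. TPM1, an abundant tropomyosin gene, fell from 624, 574 and 595 CPM to 173, 176 and 169 CPM (-1.79, standard error 0.07, adjusted p = 2.2e-06), the cardiac troponin gene TNNT2 fell by 3.02 and the coactivator gene MYOCD had a log2 fold change of -1.74. The desmin gene DES rose by 3.83, the calponin gene CNN1 by 1.18 and LMOD1 by 1.05. Of 11 YAP and TEAD targets, ANKRD1 and CYR61 rose, AXL and AJUBA fell by 1.30 and 1.12, and CTGF was at 0.25.

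Collagen genes had 13 upregulated and 3 downregulated members among 38 tested, with a median of 0.11. COL5A3 rose from 5.20, 4.46 and 4.82 CPM to 53.4, 52.4 and 55.5 CPM (log2 fold change 3.48, standard error 0.09, adjusted p = 4.24e-07), and COL26A1 and COL15A1 by 3.11 and 2.94. COL16A1, COL3A1 and COL5A2 were downregulated, at -1.77, -1.27 and -1.13. Positional and adhesion families went the other way. Of 35 HOX genes tested, 10 were downregulated (28.6%) and 3 were upregulated, and the median was -0.48. HOXD10 fell from 11.7, 11.9 and 13.7 CPM to 2.85, 2.92 and 2.93 CPM (-2.10, standard error 0.10, adjusted p = 4.56e-06), HOXC6 and HOXC11 fell by 2.07 and 2.03, while HOXD1 and HOXA13 rose by 2.56 and 1.14. Of 53 clustered protocadherin genes tested, whose products give neurons their surface identity, 11 were downregulated (20.8%) and 1 was upregulated, with a median of -0.38 (-0.50 and 15 downregulated genes without untreated replicate 1). PCDHGC5 and PCDHB14 fell by 1.84 and 1.51, and PCDHAC1 rose by 1.58. PCDHA3 and PCDHA8 were not called, at 0.30 and 0.95, but were at 2.59 and 2.29 on the sense strand (adjusted p = 0.00635 and 0.000242 from edgeR). Genes within a protocadherin cluster share exons, so their counts are not independent.

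Genes of DNA replication were lower as a group, by amounts that mostly stayed under the fold threshold. The minichromosome maintenance proteins load on origins as the replicative helicase, with CDC6 and CDT1 as loading factors. All 26 genes of replication licensing and the fork were tested. Only 3 were downregulated (11.5%), but 22 were lower at an adjusted p below 0.05, none was higher, and the median was -0.67. Of all genes tested, 5.06% were downregulated, and at the adjusted p alone 22.9% were lower and 26% higher. MCM5 (ENSG00000100297.11, hg19 chromosome 22, 35796056 to 35821423) fell from 302, 285 and 271 CPM to 96.3, 94.0 and 90.4 CPM (log2 fold change -1.61, standard error 0.08, adjusted p = 3.57e-06) and TYMS, the thymidylate synthase gene, from 376, 330 and 327 CPM to 138, 138 and 143 CPM (-1.30, standard error 0.08, adjusted p = 1.22e-05). MCM7 was at -1.02 and at -0.98 without untreated replicate 1, which ended its call. MCM3 and MCM6 were at -0.90 and -0.93, and CDT1 was at -0.93. The exception was CDC6, at 171, 178 and 174 CPM before and 174, 170 and 177 CPM after treatment (-0.01, adjusted p = 0.958). Of the 43 S phase genes of the Seurat package, 6 were downregulated (14%), 30 were lower at an adjusted p below 0.05, none was higher, and the median was -0.56. UNG, which encodes uracil DNA glycosylase, fell by 1.56 and E2F8 by 1.22.

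G2/M phase genes had a smaller median of -0.22. Of 54, 2 were downregulated, 25 were lower and 2 were higher at an adjusted p below 0.05. Of all genes tested, 5.06% were downregulated, and at the adjusted p alone 22.9% were lower and 26% higher. CBX5, the gene of heterochromatin protein HP1 alpha, fell from 179, 251 and 250 CPM to 92.6, 93.9 and 86.1 CPM (log2 fold change -1.32, standard error 0.14, adjusted p = 0.000159), and HMGB2 fell by 1.01, a call lost without untreated replicate 1 at -0.95. None of 15 cyclin, CDK and CDC25 genes was called, while 9 were lower at an adjusted p below 0.05, and the median was -0.47. CCNE2 was at -0.81, CCND1 at 0.28 and CCND3 at 0.63. In the E2F and RB family, 1 of 15 was downregulated, the E2F8 named above, and 9 were lower, with E2F1 at -0.60, E2F2 at -0.52 and RB1 at -0.06. E2F5 was at -0.93 on the deposited counts and at -2.19 on the sense strand.

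The CDK inhibitors, which halt the cycle, did not move together. CDKN1A, the gene of p21, stood at 323, 266 and 258 CPM in untreated and 530, 529 and 547 CPM in treated libraries. Its log2 fold change of 0.92 (standard error 0.10, adjusted p = 0.000195) fell short of the threshold, and was 1.03 without untreated replicate 1. CDKN2C, the gene of p18, fell from 65.1, 53.03 and 50.7 CPM to 18.7, 16.0 and 19.4 CPM (-1.64, standard error 0.12, adjusted p = 3.33e-05), and CDKN1B, the gene of p27, was at -0.76. CDKN2A, which is known to be silent in U2OS, had 2 counts in the untreated and 66 in the treated libraries, a ratio of 32.9 (8.75 to 277), and stayed under 0.44 CPM in each.

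No gene of the lists for double-strand break repair and signalling passed both thresholds. None was called among 20 of homologous recombination, 11 of non-homologous end joining and 10 of double-strand break signalling. At an adjusted p below 0.05 alone, 11, 4 and 2 genes were lower and 0, 1 and 1 were higher. Of all genes tested, 13.6% were upregulated and 5.06% downregulated, and at the adjusted p alone 22.9% were lower and 26% higher. The medians of these lists were -0.32, -0.21 and -0.11. Without untreated replicate 1 the medians were -0.36, -0.38 and -0.29. BRCA1 stood at 72.3, 94.1 and 97.5 CPM and then 48.6, 49.8 and 48.8 CPM (log2 fold change -0.84, adjusted p = 0.00072), and CHEK1 was at -0.67. BRCA2, ATM and PRKDC were at -0.39, -0.17 and -0.03 with adjusted p-values of 0.0809, 0.557 and 0.91, and in each of them untreated replicate 1 was the lowest untreated library. Without it they were lower, at -0.57, -0.43 and -0.27 (adjusted p = 2.6e-12, 3.82e-09 and 1.96e-09 from edgeR).

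Stress and cell death lists had upregulated shares on either side of that of all genes tested. Among 22 p53 targets, 3 were upregulated (13.6%, the share of all genes tested being 13.6%) and TP53I3 was downregulated by 1.44, with a median of -0.05. PMAIP1, the gene of the BH3 protein NOXA, rose from 30.6, 28.9 and 30.5 CPM to 72.2, 71.5 and 75.2 CPM (log2 fold change 1.28, standard error 0.07, adjusted p = 6.52e-06), GDF15 rose by 1.24 and GADD45A by 1.02, while MDM2 and BTG2 were at -0.07 and -0.03. Of 16 BCL2 family genes, PMAIP1, BCL2A1 (3.75) and BIK (1.82) were upregulated (18.8%) and none was downregulated, with the protective genes BCL2L1 and MCL1 at 0.46 and 0.26. AP-1 and immediate early genes, which respond to growth signals within minutes, had 3 of 13 upregulated (23.1%). At an adjusted p below 0.05 alone, 8 were higher and 2 were lower, against 26% and 22.9% of all genes tested. FOS rose from 60.8, 51.6 and 44.8 CPM to 180, 136 and 114 CPM (1.45, standard error 0.18, adjusted p = 0.00042), ATF3 rose by 1.92 and EGR2 by 1.32, and FOSL1 was at -1.06, or -0.96 and not called without untreated replicate 1. EGR1 and JUN were at 0.08 and 0.63. Of 12 ATF4 targets only ATF3 was called (8.33%), with DDIT3 at 0.23 and ASNS at 0.69. In the MYC network MYCN and MXD3 fell by 1.49 and 1.32, the latter at -0.999 and not called without untreated replicate 1, and MYC was at 0.43.

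Metabolic and housekeeping lists held few calls. Of 24 genes of cholesterol synthesis and uptake, HMGCS1 was upregulated (log2 fold change 1.05, or 0.95 and not called without untreated replicate 1), ACAT2 fell by 1.31 and TM7SF2 by 1.11, the latter at -0.92 and not called without that library. Of 19 glycolysis genes, SLC2A3 was the 1 upregulated. Of 17 lysosome and autophagy genes it was MAP1LC3B, the gene of the autophagosome protein LC3B, at 1.01, and of 21 ribosome biogenesis genes UBTF, which encodes a factor for RNA polymerase I, fell by 1.34. Of 14 heat shock genes, HSPB1 was at -1.23. It had 1990 CPM in untreated replicate 1 against 1066 and 1103 CPM in the other 2, and was at -0.89 and not called without it. Of 82 genes of cytoplasmic ribosomal proteins, 27 were lower at an adjusted p below 0.05, against 22.9% of all genes tested. Their median was -0.32, but -0.13 without untreated replicate 1. The single upregulated member RPL3L, a muscle paralog, rose by 3.58. None of the 13 protein genes of the mitochondrial genome was called, and their median was -0.03. Of 12 cancer-testis genes tested, PAGE1 alone was upregulated, by 2.34 to 0.224, 0.230 and 0.316 CPM.

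The genes of the drug's own targets and partners changed modestly. HDAC1, HDAC2 and HDAC3 had log2 fold changes of 0.22, 0.32 and 0.61 (adjusted p = 0.0252, 0.00928 and 0.000595) and HDAC8 of -0.50 (adjusted p = 0.000575), and the class IV gene HDAC11 was at 0.57. HDAC3 went from 70.2, 62.9 and 60.2 CPM to 99.2, 94.6 and 102 CPM. The class IIa gene HDAC7 was the only HDAC gene called, falling from 251, 223 and 214 CPM to 83.3, 79.6 and 78.6 CPM (-1.51, standard error 0.08, adjusted p = 7.47e-06). Of 32 corepressor subunits, CHD3, a remodeller of the NuRD complex, fell by 1.46, MBD3 fell by 1.11 (-0.79 and not called without untreated replicate 1) and RCOR2 rose.

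Acetyltransferases tended downward, with a median of -0.53 over 12 genes, 7 of which were lower at an adjusted p below 0.05. Of all genes tested, 22.9% were lower. KAT6B and KAT5 fell by 1.46 and 1.10. CREBBP was at 107, 201 and 195 CPM in untreated and 88.1, 93.9 and 84.1 CPM in treated libraries, a log2 fold change of -0.92 with untreated replicate 1 and of -1.17, past the threshold, without it. EP300 was at 69.7, 160 and 161 CPM and then 102, 106 and 97.5 CPM (-0.35, adjusted p = 0.335), and was lower without untreated replicate 1, at -0.66 (adjusted p = 5.76e-22 from edgeR). Both are long genes, and in both untreated replicate 1 was the low library. Among readers and elongation factors HEXIM2 fell by 1.20, HEXIM1 was at 0.26 and BRD2 at -0.39. The methylcytosine oxidase gene TET1 fell by 1.58. DNMT3B and JARID2 were upregulated by 1.10 and 1.09, and were at 0.97 and 0.93, not called, without untreated replicate 1, when UHRF1 reached -1.04.

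Among histone genes, H2AFY2, which encodes the variant macroH2A2, fell from 86.8, 70.7 and 69.0 CPM to 14.6, 15.1 and 14.2 CPM (log2 fold change -2.37, standard error 0.11, adjusted p = 3.47e-06). H1F0, the gene of the linker histone of resting cells, was at 851, 781 and 772 CPM before and 1108, 1131 and 1155 CPM after treatment (0.50, adjusted p = 0.000922). Of 34 replication-dependent histone genes tested, HIST1H1E and HIST1H3A rose by 2.09 and 1.53, from under 0.5 CPM. Most of these messages lack a poly(A) tail and were read from total RNA. In the family of ID proteins, which hold E proteins off DNA, ID1 rose from 295, 193 and 189 CPM to 522, 506 and 526 CPM (1.20, standard error 0.17, adjusted p = 0.0008), ID4 by 1.68 and ID2 by 1.29. ID3, the gene deleted in the study's other genotype, was at 84.5, 56.3 and 54.1 CPM and then 93.6, 82.5 and 81.2 CPM, and did not pass the test with all 6 libraries (0.40, adjusted p = 0.0883). Without untreated replicate 1, the 1 untreated library within the treated range, it was higher, at 0.63 (adjusted p = 3.69e-12 from edgeR). The E protein gene TCF4 fell by 1.38, and TCF3 was at -0.35.

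By gene class, 14.3% of protein-coding genes tested were upregulated and 4.08% were downregulated, against 11.9% and 9.58% of lncRNA genes and 12.2% and 3.80% of pseudogenes. By chromosome the upregulated share ran from 9.92% on chromosome 14 to 16.7% on chromosome 18. Few zinc finger genes were upregulated, 8 of 217 on chromosome 19 (3.69%) and 8 of 254 elsewhere (3.15%), against 13.6% of all genes. Downregulated were 5 (2.3%) and 19 (7.48%), against 5.06%, and the medians were 0.15 and -0.08. At an adjusted p below 0.05 alone, 62 were higher and 33 lower on chromosome 19, and 49 and 75 elsewhere. Of all genes tested, 26% were higher and 22.9% lower. ZNF560 had the largest rise of those on chromosome 19, from 0.0486, 0.0572 and 0.0197 CPM to 2.29, 2.09 and 2.31 CPM (5.61, standard error 0.28, adjusted p = 4.72e-06). Of 196 LINC RNAs tested, 35 were upregulated and 17 were downregulated, and LINC00624 went from no count to 315 counts, at least 105-fold higher. Of 19 tubulin genes, TUBB4A and TUBB2A rose by 1.30 and 1.12, and the pseudogene TUBG1P by 4.75.

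Strand mattered for a minority of genes. The deposited counts take fragments from either strand, so a gene and a transcript antisense to it cannot be told apart in them. Of 20194 genes tested on both these counts and those of the sense strand, 532 differed by more than 0.5 in log2 fold change, among them 216 of the 3792 called genes. Of the genes named here or in a list and called by at least 1 of the 2 ways of counting, 21 differed by more than 1. Apart from CIITA, these included RPL3L (6.25 on the sense strand), IL3RA (2.46 and 4.28), GRIN1 (3.43 and 5.05) and BSN (1.86 and 3.51), whose rise was larger on the sense strand. LINC00565 turned from -1.76 to 0.70 (adjusted p = 0.101).

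The response of ID3-KO U2OS cells to the same treatment shares no library with that of WT cells and was compared through the genotype by treatment interaction over the 12 U2OS libraries. Of the WT upregulated genes, 2644 of the 2741 tested in ID3-KO cells were also higher there, and of the downregulated genes 953 of 1033 were lower. With edgeR the interaction passed an adjusted p of 0.05 for 239 of 22647 genes with a higher response in WT cells (1.06%) and for 249 with a lower one (1.1%). Of the genes called in WT cells, 137 upregulated and 52 downregulated ones were among them. Over all genes tested, the 239 and 249 rose to 1057 and 1034 without untreated WT replicate 1. They were 124 and 121 with the replicate number as a block. CXCL14 fell by 3.44 in WT and by 1.02 in ID3-KO cells, a difference of -2.42 (standard error 0.14, adjusted p = 9.76e-07). CTNND2, a delta-catenin gene of synapses, and SH2D3C, a signalling adaptor gene, rose more in WT cells, by 2.03 and 3.22 against 0.61 and 1.76. Untreated levels differed as well, at 30.05 RPKM in WT and 5.54 in ID3-KO cells for CXCL14. They were 0.538 and 3.79 for CTNND2 and 0.561 and 1.51 for SH2D3C. No MHC class II gene had a response difference past the test. Of the neuronal genes GAP43, L1CAM, SYN1 and SYP did, each with the larger rise in ID3-KO cells (differences of -0.91, -0.94, -1.08 and -0.84).

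The response of WT AID-DIvA cells after recovery was set beside that of WT U2OS cells. The labels of the AID-DIvA libraries contradict themselves, since the treatment field names the opposite treatment of the sample title in every one of them. Groups here follow the titles. Were the treatment field right, every AID-DIvA fold change below would have the opposite sign and every difference from U2OS cells another value, so all of them depend on the titles. The AID-DIvA cells share no library with the WT U2OS cells before recovery, but differ from them in both the cell line label and the stage, which cannot be told apart. Of the genes upregulated in WT U2OS cells, 564 of the 2195 tested there were upregulated, and of the downregulated genes 126 of 1056 were downregulated, with medians of 0.41 and -0.31. Of the upregulated genes 236 were lower in AID-DIvA cells at an adjusted p below 0.05, and of the downregulated genes 82 were higher. Since these genes were chosen for their change in WT U2OS cells, a smaller response elsewhere is favoured by the choice, and the counts are a description. The treatment interaction over the 12 WT libraries passed an adjusted p of 0.05 with a higher response in U2OS cells for 4822 of 22238 genes (21.7%) and with a lower one for 4555 (20.5%). It did so in the direction of a larger change for 1959 of the 2907 upregulated genes tested for it and for 795 of the 1099 downregulated ones. The difference was large for PCDH1, a protocadherin gene outside the clusters, which rose from 1.56, 1.32 and 1.44 CPM to 48.7, 48.1 and 48.7 CPM in WT U2OS cells (log2 fold change 5.08) and was at 0.27 in AID-DIvA cells. ATCAY, the gene of the neuronal protein caytaxin, was at 5.16 and 0.23. LIF, a cytokine gene, fell by 2.05 in U2OS cells, from 167, 167 and 161 CPM to 42.7, 39.5 and 37.5 CPM, and was at 0.32 in AID-DIvA cells, a difference of -2.37 (standard error 0.10, adjusted p = 2.47e-09).

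With groups taken from the titles, the gene lists differed in how far their medians lay from 0 in AID-DIvA cells after recovery. The median of the MHC class II genes was 2.20 there over 10 genes tested, 8 of them upregulated, and 3 of the 12 had a larger response in U2OS cells. HLA-DRA had log2 fold changes of 6.13 and 5.80, which did not differ at an adjusted p below 0.05 (difference 0.32, adjusted p = 0.675), while HLA-DMB had 4.21 and 1.72 (difference 2.50, adjusted p = 9.91e-05) and CIITA 1.42 and -0.23 (difference 1.65, adjusted p = 0.000323). The CIITA values count both strands, and its sense strand was not compared with AID-DIvA cells. KRT20 stood at 6.56 and 6.85. The median of the ion channel genes was 1.02 in U2OS and -0.03 in AID-DIvA cells, with a larger response in U2OS cells for 63 genes. That of the neuronal genes was 2.03 and 0.68, with 23 such genes. The genes of replication licensing and the fork had medians of -0.67 and 0.18, and for 22 of the 26 the response was lower in U2OS cells. MCM5 was at -1.61 and 0.21. The G2/M phase genes went the other way, with medians of -0.22 and -0.65 and 30 of 54 with a higher response in U2OS cells. Among interferon-stimulated genes 3 of 22 were upregulated in U2OS and 8 of 21 in AID-DIvA cells, and for 8 the response was lower in U2OS cells. CDKN1A was at 0.92 and 1.21, and TGM2 at 1.19 and 1.20.

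**Figure D5:**
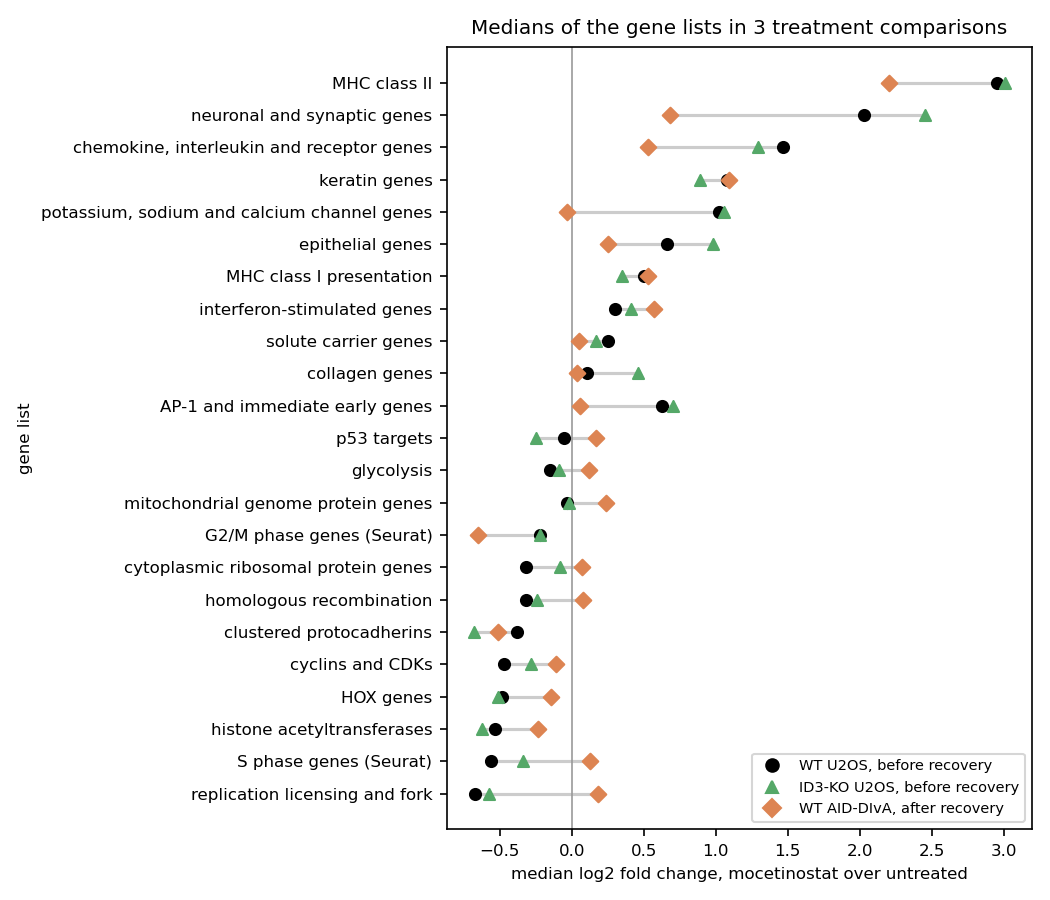
The x axis gives the median log2 fold change of mocetinostat over untreated cells for each gene list (y axis) in WT U2OS cells before recovery (black circles), ID3-KO U2OS cells before recovery (green triangles) and WT AID-DIvA cells after recovery (orange diamonds, grouped by sample title against their treatment field). The ion channel list lies at 1.02, 1.06 and -0.03 in these 3 comparisons and the replication list at -0.67, -0.57 and 0.18, while the keratin list lies at 1.08, 0.89 and 1.09.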

How the data were processed

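RNA of 6 WT U2OS cultures was sequenced as stranded total RNA in paired ends. Per the labels and the study's methods, STAR alignment to hg19/GRCh37 was followed by counting with featureCounts, and the versions of both are not given in the sources used here. The authors deposited whole-number counts of fragments per gene from either strand, with counts per strand beside them, for 57820 genes in each file. Deposited FPKM and TPM columns were not used. Totals ran from 46285533 to 70692114 counts per library, and all intervals and floors (3 counts over a group, 95% intervals) cover counting error only.

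Counts were tested with edgeR (version 4.0.16, R 4.3.3), by its quasi-likelihood method with robust estimation, after filterByExpr and TMM scaling, with Benjamini-Hochberg adjusted p-values and no covariates. AID-DIvA libraries were grouped by their titles, which their treatment field contradicts. Fold changes use edgeR's prior count of 0.125. The CPM values printed scale counts by the library's total over tested genes multiplied by its TMM factor. RPKM divides TMM-scaled CPM by exonic length. Response differences were interaction terms over 12 libraries. On simulated counts, 80.5% of 200 genes changed by 1.5 log2 units in the WT comparison were called, with 2.42% of calls false. For the difference from ID3-KO cells these shares were 67.5% and 8.78%, and for that from AID-DIvA cells 79% and 6.51%, both above the nominal 5% of false calls. In each simulation only 200 genes changed, in both directions, and no library had a bias by gene length. The shares therefore need not hold for the data.

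Gene lists (pathways, cell type markers, families by symbol, and the cell cycle lists of Seurat 5.3.0) were chosen with earlier results of these data known, as were the samples, and are described by counts and medians without a set test. Genes named are (a) the 10 largest changes in each direction among called genes with a mean of at least 1 CPM, groups that do not overlap and no clone name, (b) the 10 called genes in each direction with the highest RPKM, both called also without untreated replicate 1, (c) preset members of each list and up to 4 called ones with the largest change, and (d) for each response difference the 5 genes with the smallest adjusted p in each direction at a mean of at least 1 CPM. Genes outside this rule were named after their values were seen. Some genes that meet the rule are not reported here. Replicate numbers did not pair the samples (correlations of deviations 0.025, 0.043 and -0.023). Alternatives were DESeq2 (version 1.42.0), other scalings, filters and thresholds, a replicate block, a correction of offsets by gene length, sense-strand counts and leaving out each library. Motifs were searched in RefSeq promoters (GRCh38.p14), 150 bases before each start, with no sequence printed for HLA-DRA and CIITA.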

Additional observations from a re-analysis of the deposited data

Results flagged for a closer look

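The following responses differed between groups by the interaction test of edgeR (adjusted p under 0.05 over all genes), each given as the difference of log2 fold changes. With 3 libraries per group, no gene's values were tested for a single library far from the others.

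The response was higher in WT than in ID3-KO U2OS cells, by the differences given, for the adrenergic receptor gene ADRA1B (1.52), the exocytosis gene UNC13D (1.67), CTNND2 (1.41), SH2D3C (1.46), the vitamin D hydroxylase gene CYP24A1 (1.15), CYP4F3 (2.05), ACKR3 (0.80), LINC00452 (1.03), ANKRD1 (0.71), SDC4 (0.52), CITED2 (0.63), TGM2 (0.94), COL26A1 (1) and AJUBA (0.38). ADRA1B stood at 27.3, 26.5 and 25.5 CPM in untreated and 29.7, 32.0 and 31.9 CPM in treated WT libraries (log2 fold change 0.24), and fell by 1.29 in ID3-KO cells. ACKR3, LINC00452 and AJUBA fell in both genotypes and fell less in WT cells. Untreated WT and ID3-KO levels were 15.2 and 32.5 RPKM for ADRA1B, 1.52 and 11.7 for UNC13D and 0.538 and 3.79 for CTNND2. For SH2D3C they were 0.561 and 1.51, and for CYP24A1 3.66 and 6.46.

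It was lower in WT cells for LMCD1 (-1.94), OASL (-2.36), CXCL14 (-2.42), the lipid transporter gene MFSD2A (-1.81), VWA5B2 (-1.57), KRT14 (-3.60), MYOCD (-1.29), SNAI2 (-1.03), MYCN (-0.88), SYP (-0.84), RUNX2 (-0.56), SPP1 (-0.71), TNFRSF11B (-1.34), NOP56 (-0.37), CTGF (-0.40), EGR2 (-1.26) and KDR (-1.66). LMCD1 went from 93.9, 94.1 and 88.4 CPM to 70.5, 68.5 and 65.5 CPM in WT cells (-0.44) and rose by 1.51 in ID3-KO cells, and MFSD2A was at -0.78 and 1.03. For TNFRSF11B the values were -1.09 and 0.25, and for RUNX2 -1.53 and -0.97. KRT14 was below the filter on low counts in the ID3-KO comparison, so no fall was tested there. Its untreated level was 1.24 RPKM in WT and 0.0435 RPKM in ID3-KO cells. SYP and KDR rose in both genotypes. In untreated cells, WT and ID3-KO levels were 35.74 and 6.396 RPKM for LMCD1 and 2.349 and 0.3552 for OASL. They were 30.05 and 5.542 for CXCL14, 4.196 and 1.122 for MFSD2A and 7.216 and 1.836 for VWA5B2. All of these genes thus started higher in WT cells. Whether the response differences follow from these untreated levels was not tested.

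Treatment fields and sample titles contradict each other in the AID-DIvA libraries, and the following differences hold only for groups taken from the titles. Against WT AID-DIvA cells after recovery, the response of WT U2OS cells was higher for PCDH1 (4.81), the ligase gene RIMKLA (4.01), PCDH7 (3.09), ATCAY (4.94) and OLFM1 (2.18), and lower for AMIGO2 (-2.98), LIF (-2.37), the growth factor gene PDGFC (-3.36), LINC00452 (-3.34) and RIN2 (-1.87). RIMKLA rose from 2.89, 3.05 and 3.24 CPM to 46.4, 47.0 and 48.1 CPM in U2OS cells and was at -0.05 in AID-DIvA cells. AMIGO2 fell from 350, 376 and 367 CPM to 85.7, 80.0 and 83.4 CPM in U2OS cells and was at 0.85 in AID-DIvA cells.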

How the results depend on the processing

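In WT U2OS cells, 2958 upregulated and 1103 downregulated genes became 1954 and 841 with at least 10 counts in every library, and 5658 and 4995 with no fold threshold. The other planned settings gave 2560 to 3494 and 888 to 1226, with DESeq2 at 3325 and 1185, library totals without TMM (median of all genes 0.097) at 3233 and 901, and offsets corrected for length 3112 and 964. Leaving out each library gave 2707 to 3226 and 1017 to 1247. The replicate block gave 2858 and 1023, and the numbers did not pair the samples.

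For the difference from ID3-KO cells, 239 and 249 genes became 430 and 423 with DESeq2 and 124 and 121 with the replicate block. They ranged from 123 to 1057 and from 134 to 1034 when each library was left out, the highest without untreated WT replicate 1. Differences from AID-DIvA cells numbered 4171 to 5911 and 3853 to 5918 when each library was left out.

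Of 278 named genes 171 were called, and 154 of these kept their call in every setting in which they were tested. Genes that a setting's filter removed were not counted as lost there. None of the 171 changed sign, 11 lost their call without untreated replicate 1, and 40 values of uncalled genes changed sign. For the 20 response differences of rule (d), all 300 values kept their direction and their call. These were chosen for the smallest adjusted p in the same data, which favours this outcome. The other flagged differences were not in this check. The cause of these shifts was not tested. Genes with under 3 untreated counts have no reliable fold change.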
